A study of Mus musculus with 931 samples.

Results

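Pancreatic α and β cells of suckling mice were compared at postnatal day 9 (P9), from single cells that the labels give as expressing a single hormone. The comparison holds 110 of the 917 cells in the count table, or of the 866 unselected single-hormone cells, and takes 45 α cells and 65 β cells. They were chosen by their labels alone. The α cells came from Gcg-Cre; Rosa-RFP mice on a mixed C57BL/6, CBA/J and C3H background, in which Cre driven by the glucagon gene switches on a red reporter. The β cells came from Ins1-RFP mice on a mixed C57BL/6 and C3H background, so cell type, reporter and strain cannot be told apart here. Both groups were unperturbed animals of the same age, and 3 further P9 β cells labelled as Ins1+ and Sst+, as well as the β batch enriched for proliferating cells, were not used. The label rule itself therefore limits how much of another hormone a cell in this comparison can hold.

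Glucagon from α cells raises blood glucose between meals, and insulin from β cells lowers it after feeding. Both cell types arise from Neurog3+ endocrine progenitors and are held apart by transcription factors, with Pdx1 and Nkx6-1 well known on the β side. In mice the first weeks after birth, spent on fat-rich milk, are the time in which the cells acquire their adult secretory behaviour.

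The α cells fell into 3 labelled batches, numbered 2 (22 FACS-sorted cells), 3 (8 FACS-sorted cells) and 4 (15 hand-picked cells). The β batches were numbered 1 (23 hand-picked cells), 2 (23 FACS-sorted cells) and 3 (19 hand-picked cells). Reads were summed per batch, which gave 8338998 to 22523741 reads per α batch and 22103451 to 26956973 per β batch. The batch served as the replicate throughout. No label ties a batch to an animal, and a p-value here measures batch-to-batch spread that could be purely technical. Smart-seq2 covers whole transcripts without molecular identifiers, so reads are not independent molecules and a limit set by 0 reads covers counting error alone. Batch levels below are CPM, edgeR's read counts scaled to library size, after TMM scaling, single-cell levels are CPM of the cell's own gene reads, and levels are compared within a gene. A gene was called when the edgeR quasi-likelihood test, fitted over the 45 unselected batches of all stages with the collection method as covariate, gave a Benjamini-Hochberg adjusted p under 0.05 over 18537 genes.

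The labels were checked first against the hormones. Gcg, which encodes glucagon, took 39.9%, 39.0% and 35.9% of all reads in α batches 2, 3 and 4, and between 0.000108% and 0.000633% in the β batches. Ins2 and Ins1, the insulin genes of the mouse, took 25.3% to 31.2% and 15.2% to 18.2% of the reads in β batches. Each of the 45 α cells held at least 305950 CPM of Gcg and each of the 65 β cells at least 190450 CPM of Ins2. No cell of either group went against its label. The reporters and the single-hormone labels rest on these hormones, so this check is not independent of how the cells were chosen.

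Summed markers of other cells were higher in α batches for several types, though not for duct cells (177 to 299.7 against 225 to 329.6 CPM). The 7 delta markers summed to 319.7 to 583 CPM in α and 32.5 to 199.8 CPM in β batches. Called higher in α cells were 1 of 12 acinar, 0 of 5 mesenchymal and 0 of 6 delta markers tested. Among 7 duct markers 1 was called, higher in β cells. Over all genes tested, 2.90% were called higher in α and 3.61% higher in β cells. The 13 acinar markers summed to 426 to 1316 CPM in α and 37.1 to 152 CPM in β batches, with Amy2a5 at 0 in both, and the 7 mesenchymal markers to 11.3 to 24.4 and 0 to 5.86 CPM. The 5 erythroid markers summed to 1687, 16.9 and 8.46 CPM in α batches and to 2.27 to 3.87 CPM in β batches. In α batch 2 they came mainly from 2 of 22 cells above 1000 CPM. The globin genes Hbb-bs, Hbb-bt and Hba-a1 were called higher in α cells, and the calls ended without α batch 2 (adjusted p 0.432 to 0.730), as they did without β batch 1 or β batch 3 (adjusted p 0.0736 to 0.176). Endothelial and immune markers were at most 8.46 and 24.3 CPM in any batch, with Ptprc, Lyz2, Cd52 and Tyrobp at 0 in α cells. Leaving out the 8 cells above 1000 CPM in summed erythroid or acinar markers, a choice made after seeing the data, gave 547 genes higher in α and 693 in β cells. Apart from the globins, the called genes named below for P9 kept their calls there. Whether these markers contribute to other results was not tested further.

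Gcg stood at 421158, 386519 and 335291 CPM in α batches 2, 3 and 4, against 1.29, 2.81 and 6.62 CPM in β batches 1, 2 and 3. The groups lay far apart, with a log2 difference of 17.14 (SE 2.81, adjusted p = 6.40e-05). Ins1 stood at 10.0, 23.4 and 22.5 CPM in α and at 218233, 206544 and 159192 CPM in β batches (log2 difference -13.45, SE 0.97, adjusted p = 2.51e-12). Ins2 was at 22.2, 50.1 and 72.1 CPM in α and at 366912, 397569 and 264347 CPM in β batches (log2 difference -12.86, adjusted p = 1.78e-08, and -13.68 without α batch 4). Each cell type held its own hormone with only traces of the other's, which the reporters and single-hormone labels largely set in advance. The tests of these 3 genes are therefore no independent result. Iapp encodes amylin, which is packed with insulin. It was less strictly divided, at 1642, 1473 and 4287 CPM in α against 41083, 62108 and 44784 CPM in β batches (log2 difference -4.32, SE 0.53, adjusted p = 3.77e-07). The groups did not overlap, and the Iapp difference grew to -5.10 without α batch 4 and missed the threshold within hand-picked batches (-3.34, adjusted p = 0.0594).

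The 250 bases before the RefSeq start of Gcg, Ins1 and Iapp (GRCm38.p6) are shown with the core TAAT marked. Ins2 had no entry among the promoters used and is not shown. Pdx1, Nkx6-1 and Mnx1, called between the cell types below, are homeodomain proteins whose binding sites commonly hold this core. Capitals mark TAAT on either strand (ATTA is its reverse complement), and each sequence reads 5′ to 3′ on the strand of its gene.
Gcg, chr2:62483654-62483903, minus strand: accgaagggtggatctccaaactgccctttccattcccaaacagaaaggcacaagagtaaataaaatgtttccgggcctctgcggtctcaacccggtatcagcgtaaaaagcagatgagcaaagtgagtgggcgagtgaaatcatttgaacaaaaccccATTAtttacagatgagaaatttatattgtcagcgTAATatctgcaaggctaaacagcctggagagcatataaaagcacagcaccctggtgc
Ins1, chr19:52264047-52264296, plus strand: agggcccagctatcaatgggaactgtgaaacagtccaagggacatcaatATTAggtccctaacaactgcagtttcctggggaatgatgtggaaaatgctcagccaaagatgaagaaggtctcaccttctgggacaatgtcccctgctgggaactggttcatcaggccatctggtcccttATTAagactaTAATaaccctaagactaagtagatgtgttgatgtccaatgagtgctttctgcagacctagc
Iapp, chr6:142298175-142298424, plus strand: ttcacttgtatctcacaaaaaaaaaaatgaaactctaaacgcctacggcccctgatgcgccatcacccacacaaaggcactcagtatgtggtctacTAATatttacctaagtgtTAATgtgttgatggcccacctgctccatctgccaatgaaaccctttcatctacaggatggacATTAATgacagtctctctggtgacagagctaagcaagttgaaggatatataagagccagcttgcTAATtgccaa
The core occurs 2 times before Gcg, 3 times before Ins1 and 5 times before Iapp, where 2 of the matches overlap. It is a short and common word: 54.8% of 32536 such stretches hold it, 30.6% hold it at least 2 times, 17.2% at least 3 times and 5.51% at least 5 times. These matches describe the letters only and show no binding. In the annotation (GENCODE, GRCm38), Gcg (ENSMUSG00000000394) spans chr2:62474530-62483650, Ins1 chr19:52264297-52265476 and Iapp chr6:142298423-142303961.

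Single cells showed how the hormones were spread. A Gcg read was present in 26 of the 65 β cells, but the highest β cell reached 95.2 CPM. An Ins2 read was present in 22 of the 45 α cells, with a maximum of 487 CPM. These traces stayed far below the hormone's own cell type. Iapp was present throughout: all 45 α cells held it, from 32.4 to 24366 CPM with a median of 898, and 22 of them passed 1000 CPM, while the β cells ranged from 16114 to 62337 CPM. The top α cell thus lay inside the β range. Across the 45 α cells Iapp did not track Ins2 (Spearman rho 0.00) or the pancreatic polypeptide gene Ppy (rho -0.09), which is given as a description over cells of 3 batches.

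**Figure D1:**
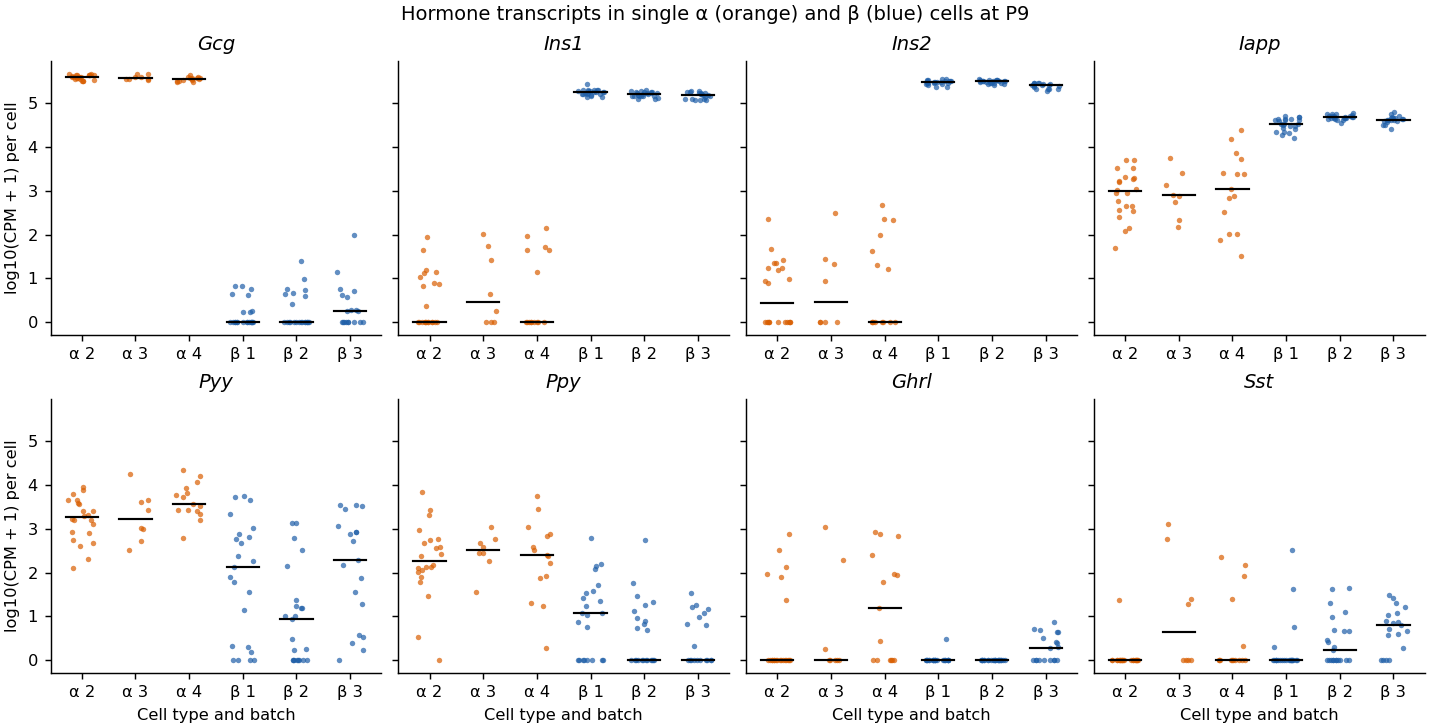
Hormone transcripts in each single cell at P9, as log10(CPM + 1) on the vertical axis, with cells grouped by batch on the horizontal axis, α in orange and β in blue, and a bar at the batch median. Gcg, Ins1 and Ins2 separate the groups completely, Iapp spreads from 32.4 to 24366 CPM among α cells, and Pyy and Ppy are present in most α cells and at lower medians in β cells.

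Among peptides of other islet cell types, Ghrl was called and Pyy, Ppy and Sst were not. Pyy, encoding peptide YY, was at 2887, 4271 and 6086 CPM in α and at 1270, 213 and 981 CPM in β batches. The batches did not overlap, yet the difference missed the threshold (log2 difference 2.61, SE 1.13, adjusted p = 0.191). All 45 α cells and 52 of 65 β cells held Pyy reads, with medians of 2603 and 36.0 CPM. Ppy was at 824, 392 and 818 CPM in α against 70.6, 42.0 and 6.10 CPM in β batches (adjusted p = 0.0685) and was likewise not called. Beside this, the summed PP cell markers (Ppy and Pyy among them) were at 3711 to 6904 CPM in α and 255 to 1341 CPM in β batches. Among α cells 34 of 45 passed 100 CPM of Ppy, and among β cells 5 of 65, and Ppy and Pyy were weakly related across α cells (rho 0.31). Ghrl, which encodes ghrelin, was called, at 80.5, 175 and 175 CPM in α and at 0.0890, 0 and 1.56 CPM in β batches (log2 difference 9.03, adjusted p = 0.00368). It was carried by a minority, since 9 of 45 α cells passed 100 CPM and no β cell exceeded 6.33 CPM. Without β batch 3 the Ghrl difference was 12.04, and within hand-picked batches alone it was not called. Sst, which encodes somatostatin, overlapped between the groups (89.3 ± 127 CPM in α and 13.2 ± 8.72 in β cells, SD, n = 3) and was not called. Because cells with a second hormone were labelled apart, the levels of Ppy and Sst in β cells are bounded by that labelling.

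Across all genes, 538 were higher in α cells (2.90% of those tested) and 669 higher in β cells (3.61%), which makes 6.51% in either direction. These shares are the background for the counts of every gene list below. Without β batch 1 or β batch 2 the α count was 306 or 305. Among the 6 batches the first principal component, with 40.7% of the variance, set α (71.7 to 165.3) apart from β (-111.8 to -102.2). The second, with 22% of the variance, spread α batches 2, 3 and 4 widely (-48, 125.4 and -141.1), while β batches lay at 18.6 to 25.6. When each cell was weighted equally (batch means of log2(TPM + 1), limma) the split turned. It then had 1437 genes higher in α and 476 in β cells, with 75.1% of the calls on the α side in place of 44.6%. This setting, called equally weighted cells below, also replaced TMM-scaled counts by TPM without TMM scaling. The effects of weights, scaling and test cannot be told apart in it. At a pseudocount of 0.1 the share was 66.4%, and within hand-picked batches it was below 44.6%. With equally weighted cells the median difference of all genes went from 0.01 to 0.07, but some lists moved more, in either direction. Medians went from 0.91 to 1.64 for ribosomal proteins, from 0.10 to 0.71 for oxidative phosphorylation and from 5.50 to 2.76 for α identity genes. Of 86 called genes picked for description, all 86 kept their direction within FACS-sorted and within hand-picked batches, and 63 and 58 of them passed the threshold there. Using only the 6 P9 batches, 74 of 85 did. These genes were picked for their difference between the same 6 batches, so their kept direction was largely set in advance and is no support.

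**Figure D2:**
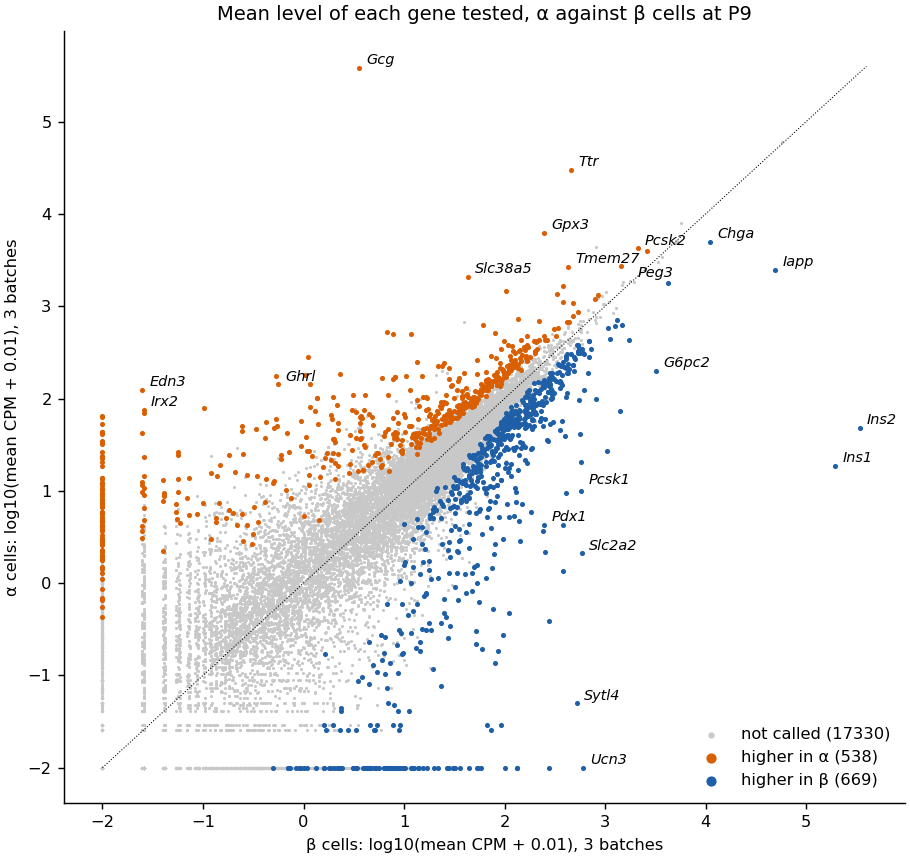
Mean level of each of the 18537 genes tested at P9, with β cells on the horizontal and α cells on the vertical axis, both as log10(mean CPM + 0.01) over 3 batches. Orange marks the 538 genes called higher in α cells, blue the 669 called higher in β cells and grey the rest, the dotted line marks equal levels, and genes at -2 on an axis had no read in that cell type.

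Of 20 α identity genes, 16 were higher in α cells, 0 were lower and 4 were not called, with a median log2 difference of 5.50 beside 0.01 for all genes. Ttr, a carrier of thyroid hormone and retinol that is abundant in α cells, stood at 28629, 33611 and 28745 CPM in α and at 432, 684 and 249.8 CPM in β batches (log2 difference 6.04, SE 0.43, adjusted p = 2.29e-12). Gc, the vitamin D binding protein, was at 499 ± 67.1 CPM in α and 11.7 ± 6.85 in β cells (SD over 3 batches; edgeR adjusted p = 6.82e-06), a gene chosen after its values were seen. Smarca1, a chromatin remodeller, was at 174 ± 69.1 and 10.5 ± 4.89 CPM. Peg3, a zinc finger gene of the same list, was at 1899 ± 526 and 1773 ± 279.6 CPM and was not called (adjusted p = 0.885). Of 24 β identity genes, 21 were higher in β cells and 2 were not called (median log2 difference -5.43). The remaining member, Tmem27, a membrane protein of islet cells also known as collectrin, was higher in α cells, at 2579, 2675 and 2722 CPM against 412, 491 and 384 CPM (log2 difference 2.64, SE 0.19, adjusted p = 2.29e-12). These are lists of known markers and served to check the labels.

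Genes with the largest differences were close to all or none. Fbp1, the gluconeogenic fructose bisphosphatase, had no read in any β batch and was at least 1388-fold higher in α cells, from 64.8 ± 18.0 CPM (SD, n = 3), a call that ended within FACS-sorted batches. Cav1, the caveolar coat protein, was at least 1144-fold higher, but 30 of 45 α cells had no read and its call ended within either collection method. Edn3, which encodes endothelin 3, had 124 ± 47.0 CPM in α and a single read over all β cells (adjusted p = 2.62e-08). On the β side Ucn3, the stress peptide urocortin 3 of maturing β cells, had 492, 812 and 497 CPM and no read in α cells, at least 9452-fold higher in β. Every β cell held Ucn3 and none of 45 α cells did, which allows a share of up to 6.67% of α cells with a read. Sytl4, the granule protein granuphilin, had 522 ± 86.6 CPM in β cells and 1 read over all α cells (adjusted p = 5.09e-11). Muc4, a membrane mucin, was at least 2106-fold higher in β cells, from 134 ± 31.4 CPM, and 61 of 65 β cells held reads. Msln, which encodes mesothelin, was uneven among β batches (50.0, 6.83 and 249.6 CPM), with reads in 16 of 65 cells and in no α cell, and was not called within hand-picked batches.

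Among 29 islet transcription factors tested, 7 were higher in α cells, 5 in β cells and 17 were not called (median log2 difference 0.05), with 4 and 3 called within hand-picked batches. Of all genes, 2.90% were higher in α and 3.61% in β cells. Irx2, an Iroquois homeodomain factor, had 97.5, 47.5 and 82.4 CPM in α batches and 1 read over all β cells (adjusted p = 1.23e-06), and 42 of 45 α cells held it. Etv1, an ETS factor, stood at 560.2, 532 and 480 CPM in α and at 4.27, 11.6 and 4.40 CPM in β batches (log2 difference 6.19, adjusted p = 7.77e-07). Isl1, a LIM homeodomain factor of all islet endocrine cells, was 2.82-fold higher in α cells, at 556, 470.4 and 406 CPM against 156, 158 and 186 CPM (adjusted p = 0.000180). Its call ended within the FACS-sorted batches. Pdx1, which controls insulin transcription, was at 3.66, 0 and 9.20 CPM in α and at 238, 202 and 306 CPM in β batches (log2 difference -5.79, SE 1.03, adjusted p = 0.000195, and -7.00 without α batch 4). All 65 β cells and 9 of 45 α cells held Pdx1 reads. Nkx6-1 was at 7.24 ± 1.91 CPM in α and 107 ± 10.4 in β cells (log2 difference -3.84, adjusted p = 1.78e-08), with reads in 20 of 45 α cells. Mnx1, a homeodomain factor of the β lineage, had no read in α cells and 30.5, 7.75 and 13.1 CPM in β batches, at least 269.6-fold higher.

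Mafa, a transcription factor of adult β cells, was barely detected, at 1.34, 0.436 and 1.04 CPM in β batches and 1 read over all α cells (adjusted p = 0.0556). Its reads lay in 23 of 65 β cells, none above 6.59 CPM. Pax6, which acts in all islet cells, was at 174 ± 22.1 CPM in α and 292 ± 24.6 in β cells. Its call (adjusted p = 0.00817) ended without α batch 4 (log2 difference -0.67, adjusted p = 0.0681), with equally weighted cells and within each collection method. Neurod1 was at 231 ± 56.5 and 314 ± 10.3 CPM and was not called (adjusted p = 0.157).

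**Figure D3:**
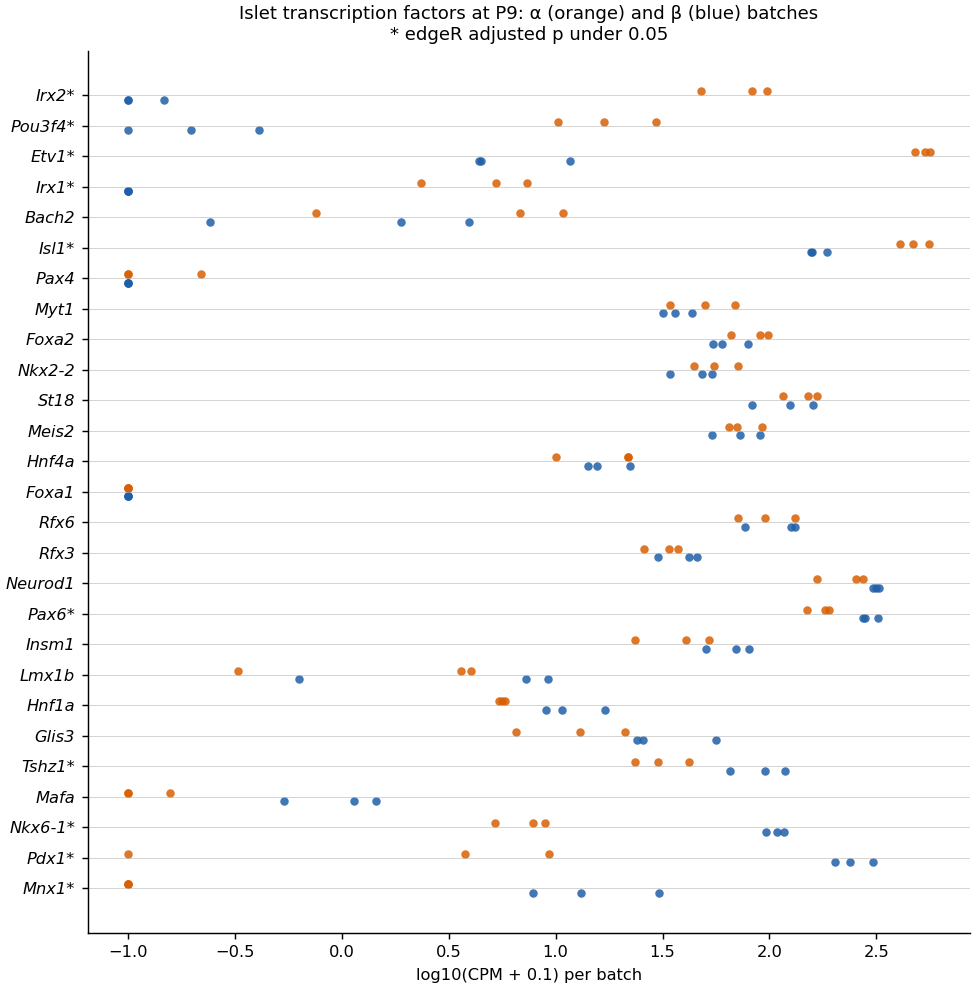
Islet transcription factors at P9, each batch as a point at log10(CPM + 0.1) on the horizontal axis, α in orange and β in blue, ordered from α-high at the top to β-high at the bottom. An asterisk marks an edgeR adjusted p under 0.05, and points at -1 had no read. The batches of Irx2 and Mnx1 lie apart from the other cell type's, with Mnx1 spread from 7.75 to 30.5 CPM among β batches.

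The enzymes that cut prohormones split by cell type. Pcsk2, which releases glucagon from its precursor, was 2.05-fold higher in α cells, at 4436, 3746 and 4568 CPM against 2206, 2024 and 2100 CPM (adjusted p = 5.97e-06). Pcsk1, which cuts proinsulin, was at 6.24, 20.2 and 3.66 CPM in α and at 654, 453 and 629 CPM in β batches (log2 difference -5.81, SE 1.12, adjusted p = 0.000544). Its difference was -6.79 without α batch 3 and -7.47 within hand-picked batches, where it was not called. Per gene length, α cells held 1333 ± 198 TPM of Pcsk2 and 5.49 ± 4.87 TPM of Pcsk1, and β cells held 405 ± 68.0 and 198 ± 59.4 TPM (SD, n = 3). The α cells thus held mainly Pcsk2 and the β cells both enzymes. Of 19 genes for prohormone processing and granule proteins, 6 were higher in α, 5 higher in β cells and 8 were not called, with 2 and 3 within FACS-sorted and 3 and 2 within hand-picked batches. With equally weighted cells 8 of the 19 were higher in α and 2 in β cells, and the median log2 difference went from -0.17 to 0.44. Of all genes 2.90% were higher in α and 3.61% in β cells. Pam, which amidates peptides, was higher in α cells at 1642 ± 83.3 against 382 ± 30.7 CPM (log2 difference 2.13, adjusted p = 7.91e-08). So was Resp18, a granule protein, at 1374 ± 454 against 335 ± 115 CPM, though not within FACS-sorted batches alone. Ero1lb, the ER oxidase for proinsulin disulfides, was at 73.7 ± 40.5 in α and 1405 ± 235 CPM in β cells (log2 difference -4.23, adjusted p = 2.03e-11). The granins Chga (4963 ± 928 against 11135 ± 2201 CPM) and Chgb (617 ± 33.9 against 1250 ± 95.4 CPM) were called higher in β cells, and both calls ended with equally weighted cells. The Chga call also ended within hand-picked batches and in the 6 P9 batches alone, and the Chgb call within FACS-sorted batches. The zinc carrier of insulin granules, Slc30a8, was at 964 ± 50.1 and 1275 ± 15.4 CPM and was not called (adjusted p = 0.316).

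Among genes for taking up and using glucose, Slc2a2, the glucose carrier GLUT2, stood at 1.08, 3.81 and 1.43 CPM in α and at 608, 580.4 and 577 CPM in β batches (log2 difference -8.27, adjusted p = 3.19e-05, and -8.87 without α batch 3). All 65 β cells and 3 of 45 α cells held it. Of 30 genes for glucose entry and mitochondrial coupling, 9 were higher in β and 4 in α cells, beside 3.61% and 2.90% of all genes. The other 17 were not called (median log2 difference -0.49). The α count was 0 within FACS-sorted and 2 within hand-picked batches, and the β count 6 in each. Pcx, pyruvate carboxylase, was 12.3-fold higher in β cells, at 9.80 ± 3.89 against 131 ± 15.6 CPM (adjusted p = 1.61e-05). Acly, which makes cytosolic acetyl-CoA from citrate, was at 431 ± 131 and 1715 ± 83.1 CPM (log2 difference -1.95, adjusted p = 2.20e-08). Ucp2, a mitochondrial carrier, overlapped between the groups (adjusted p = 0.593).

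Downstream of fuel sensing most channel genes were not called. Of 32 ion channel genes 2 were higher in α and 5 in β cells, beside 2.90% and 3.61% of all genes. The other 25 were not called. The α count was 1 without β batch 1 or 2, 4 with DESeq2 and 6 with equally weighted cells, and the β count was 3 without β batch 3 or α batch 2. Abcc8, the sulfonylurea receptor of the KATP channel, was at 455 ± 69.2 CPM in α and 533 ± 76.2 in β cells (log2 difference -0.14, SE 0.18, adjusted p = 0.776). Trpm5, a calcium-activated cation channel, had no read in α cells and 163, 137 and 98.2 CPM in β batches, at least 2090-fold higher. Gjd2, the connexin that couples β cells, was at 5.37 ± 6.53 CPM in α and 123 ± 14.0 CPM in β cells (log2 difference -4.53, adjusted p = 0.000360, and -6.33 without α batch 2). Kcnh6, a potassium channel, was 2.86-fold higher in α cells, and its call ended within each collection method. In the exocytosis machinery 3 of 30 genes were higher in α cells, 6 in β cells and 21 were not called, with 0 and 3 within FACS-sorted and 2 and 2 within hand-picked batches. These counts stand beside 2.90% and 3.61% of all genes. With equally weighted cells 4 exocytosis genes were higher in α and 3 in β cells, and the median log2 difference went from -0.09 to 0.26. Rims3, an active zone protein, had no read in α cells and 54.4 ± 21.1 CPM in β cells, at least 857-fold higher. Rab3d, a granule GTPase, was at 73.0 ± 10.1 and 191 ± 39.9 CPM (log2 difference -1.31, adjusted p = 0.000302), a call that ended within hand-picked batches.

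Of 36 receptors tested, 12 were higher in β and 7 in α cells, beside 3.61% and 2.90% of all genes, and 17 were not called. The α count was 4 without β batch 2, 3 within FACS-sorted and 2 within hand-picked batches, and the β count was 7 within FACS-sorted batches. Glp1r, the receptor of the incretin GLP-1, had 326, 268 and 237 CPM in β batches and no read in α cells, at least 4363-fold higher in β. It was present in every β cell, with a lowest cell of 30.5 CPM, and in none of 45 α cells. Gcgr, the receptor of glucagon itself, likewise had 62.5, 51.5 and 60.0 CPM in β batches and none in α, at least 913-fold higher, with reads in 52 of 65 β cells. Gipr, the receptor of the other incretin, chosen after its values were seen, differed less, at 29.2 ± 8.56 against 85.1 ± 12.9 CPM (log2 difference -1.51, adjusted p = 9.86e-05), and its call ended within FACS-sorted batches. Gpr158, an orphan receptor, and Adra2a, the α2A adrenoceptor that restrains insulin release, had no read in α cells and were at least 833-fold and 571-fold higher in β cells. Ghr, the growth hormone receptor, was at 48.7, 79.9 and 50.1 CPM in α and 279, 236 and 241 CPM in β batches (log2 difference -2.01, adjusted p = 3.77e-06). On the α side Sstr2, a somatostatin receptor, had 18.5 ± 7.89 CPM and no read in β cells, at least 395-fold higher. Avpr1b, a vasopressin receptor, was at least 507-fold higher, though its batches ranged from 9.15 to 43.7 CPM, and it was not called within FACS-sorted batches. Oxtr, the oxytocin receptor, also chosen after its values were seen, was at 129, 61.1 and 114 CPM in α and 0, 0 and 4.07 CPM in β batches (adjusted p = 0.00613). Its call ended in the 6 P9 batches alone and within hand-picked batches. The calcium-sensing receptor Casr overlapped between the groups (42.0 ± 12.3 and 49.7 ± 15.6 CPM) and was not called.

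Of 31 genes of cAMP and phosphoinositide signalling, 6 were higher in α and 0 in β cells, beside 2.90% and 3.61% of all genes. The other 25 were not called (median log2 difference 0.65). The α count was 3 without β batch 1, 4 without α batch 2, α batch 4 or β batch 3, and 2 in the 6 P9 batches alone. Adcy1, an adenylyl cyclase, had 20.7 ± 7.86 CPM in α cells and no read in β cells, at least 444-fold higher. Gnai1, an inhibitory G protein subunit, was at 96.9 ± 11.8 and 13.4 ± 4.18 CPM (log2 difference 3.12, adjusted p = 0.00126). Gnas, the stimulatory subunit, was 3.01-fold higher, at 137, 109 and 74.8 against 29.9, 25.7 and 58.2 CPM, and its call ended in the 6 P9 batches alone. The calls of Gnai1 and Gnas ended within hand-picked batches, and that of Adcy1 within FACS-sorted ones. Among 24 peptide ligands, Vgf, a granin-like precursor, was 36.6-fold higher in α cells at 65.9 ± 15.3 against 1.85 ± 0.335 CPM (adjusted p = 0.00171), a call that ended within each collection method. In all 3 ligands were higher in α, 5 in β cells and 16 were not called, beside 2.90% and 3.61% of all genes. Both counts were lower within hand-picked batches, and they were 6 and 4 with equally weighted cells. The list holds Gcg, Ins1 and Ins2, which the labels largely set in advance, so its counts are no independent result.

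Amino acids drive glucagon release, and several genes for their handling were higher in α cells. Slc38a5, a glutamine transporter, stood at 2612, 2491 and 1176 CPM in α and at 55.7, 61.2 and 13.3 CPM in β batches (48.4-fold, adjusted p = 6.19e-06). Slc16a10, an aromatic amino acid carrier, was at 385 ± 19.9 and 169 ± 42.8 CPM, and its call ended within each collection method. Of 25 genes 5 were higher in α and 2 in β cells, beside 2.90% and 3.61% of all genes, and 18 were not called. The α count was 2 within either collection method and 10 with equally weighted cells. The taurine carrier Slc6a6 was higher in β cells (128 ± 25.0 against 291 ± 31.2 CPM), a call that ended with equally weighted cells. Among 13 monoamine genes 7 were higher in β cells and 0 in α cells, and the β count was 3 with equally weighted cells, 2 in the 6 P9 batches alone and 1 within either collection method. Over all genes the shares were 3.61% for β and 2.90% for α cells. Th, tyrosine hydroxylase, was at 0, 1.55 and 0 CPM in α and 80.6, 116 and 35.5 CPM in β batches (log2 difference -7.91, adjusted p = 3.85e-05), with reads in 43 of 65 β cells. Its difference ranged from -13.77 without α batch 3 to -7.08 without α batch 2, and it was not called within hand-picked batches. Ddc, the decarboxylase of the same pathway, was at 115 ± 74.0 and 416 ± 12.4 CPM (log2 difference -1.91, and -2.53 without α batch 3), and its call ended in the 6 P9 batches alone and within FACS-sorted batches.

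Several imprinted genes, expressed from a single parental copy, lay almost wholly in 1 cell type. Of 26, 7 were higher in α, 3 in β cells and 16 were not called, with 4 and 2 within FACS-sorted and 2 and 2 within hand-picked batches. Beside these counts, 2.90% of all genes were higher in α and 3.61% in β cells. Sgce, encoding ε-sarcoglycan, had 88.7, 73.6 and 45.0 CPM in α batches and 1 read over all β cells (adjusted p = 6.43e-09). Its neighbour Peg10, a domesticated retrotransposon gene, had 66.8, 26.4 and 6.92 CPM in α batches and no read in β cells, at least 715-fold higher, and was not called within hand-picked batches. The genes lie head to head on chromosome 6, Sgce at chr6:4674350-4747207 on the minus strand and Peg10 at chr6:4747306-4760517 on the plus strand. Grb10, an inhibitor of insulin receptor signalling, was at 242 ± 30.9 against 24.9 ± 10.8 CPM (log2 difference 3.34, adjusted p = 4.54e-08). Mest was uneven among α batches (26.7, 60.4 and 150 CPM) and below 0.1 CPM in every β batch; its call ended within each collection method, and its log2 difference of 9.65 was 8.78 without α batch 4. In the other direction Nnat, neuronatin, which aids proinsulin entry to the ER, was at 1.36, 7.37 and 4.12 CPM in α and 395, 323 and 430.1 CPM in β batches (log2 difference -6.48, adjusted p = 5.38e-06, and -7.13 without α batch 3). Rasgrf1, a Ras exchange factor, was at 7.18 ± 5.93 and 148 ± 17.9 CPM (log2 difference -4.21, and -5.13 without α batch 3).

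Further lists are given by their counts, beside 6.51% of all genes called in either direction. The list of 21 immature endocrine genes had 2 higher in α and 1 in β cells, and the α count was 1 without β batch 1 or 2 or α batch 3 and 5 with DESeq2. Mature β cells are known to silence certain housekeeping genes, and the list of 23 such genes had 3 higher in α and 0 in β cells. Its α count was 1 without β batch 2, 0 within FACS-sorted and 1 within hand-picked batches. Fev, a serotonergic ETS factor of immature endocrine cells, was at 89.8, 78.6 and 55.3 CPM in α and 6.10, 0.0484 and 2.93 CPM in β batches (log2 difference 4.47, adjusted p = 0.000863). That difference was 3.74 without β batch 2 and 5.47 without β batch 1, and its call ended in the 6 P9 batches alone. Among 39 genes of axon guidance and adhesion 2 were higher in α and 4 in β cells. The counts were 7 and 8 with DESeq2, the α count was 1 without β batch 2, and the β count was 2 without α batch 2 or 4. Cdh1, the epithelial cadherin, was 3.53-fold higher in β cells (61.0 ± 16.8 against 228 ± 39.4 CPM, adjusted p = 5.27e-06). Robo1, a Slit receptor, was 12.2-fold higher in β cells (2.94 ± 1.28 against 35.9 ± 6.14 CPM, adjusted p = 0.000970). The antigen presentation and interferon list of 20 had 2 members higher in α and 0 in β cells. The α count was 0 without β batch 1 or β batch 2 and 1 without any other single batch. H2-K1, an MHC class I chain of this list, was at 197 ± 23.0 and 192 ± 38.0 CPM (adjusted p = 1.00). No immediate early or heat shock gene (of 17) was called by edgeR over all stages or by DESeq2, and 1 had an unadjusted edgeR p under 0.05. With equally weighted cells 2 were called higher in α cells, and with the replicate block in the 6 P9 batches 1 was. Among zinc, iron and antioxidant genes 3 of 23 were higher in each cell type, but 1 in α and 3 in β cells without β batch 1, and 7 in α and 3 in β cells with equally weighted cells. Gpx3, a secreted glutathione peroxidase, was at 6635, 5760 and 6496 CPM in α and 331, 63.2 and 343 CPM in β batches (log2 difference 4.71, adjusted p = 1.41e-05). Mt1, a metallothionein, was at 7.79, 2.85 and 6.97 CPM in α and 148, 165 and 238 CPM in β batches (log2 difference -5.01, adjusted p = 1.05e-05).

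None of 42 proliferation genes was called by edgeR over all batches or by DESeq2, 0 had an unadjusted edgeR p under 0.05, and the batches overlapped for each. Without α batch 4 edgeR called 2 of them higher in β cells, within FACS-sorted batches it called 1 higher in β cells, and with the replicate block in the 6 P9 batches 5 higher in β and 1 in α cells. Mki67, a marker of cycling cells, was at 3.24, 0.952 and 67.9 CPM in α and 16.1, 44.9 and 91.8 CPM in β batches (log2 difference -1.40, SE 1.45, adjusted p = 0.681). It passed 10 CPM in 3 of 45 α cells and 9 of 65 β cells, and 1 cell with 1260 CPM made most of the level in α batch 4. Ccnd2, the cyclin D of islet cells, was at 1280 ± 307 and 925 ± 142 CPM and overlapped.

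Genes for folding proteins in the ER and for ribosomes moved apart. Of 25 ER folding and unfolded protein response genes 17 were higher in β cells, 0 in α cells and 8 were not called (median log2 difference -0.90 beside 0.01 for all genes). Sdf2l1, an ER chaperone subunit, was at 22.2, 33.8 and 47.0 CPM in α and 288, 369 and 148 CPM in β batches (log2 difference -2.98, SE 0.40, adjusted p = 1.66e-06). Dnajc3, a cochaperone of the ER, was 2.76-fold higher in β cells (131 ± 14.5 against 357 ± 62.6 CPM, adjusted p = 6.39e-06). Hspa5, the chaperone BiP, chosen after its values were seen, was at 584, 514 and 778 CPM in α and 1627, 1613 and 1216 CPM in β batches (log2 difference -1.26, adjusted p = 0.000625). Hsp90b1, another abundant chaperone, overlapped (adjusted p = 0.836). With each cell weighted equally 5 members of the list were higher in β and 1 in α cells, and Hspa5 was not called, nor was it within hand-picked batches. The β count was 11 without α batch 3, 8 in the 6 P9 batches alone, 7 within FACS-sorted and 5 within hand-picked batches. The median stayed between -0.99 and -0.49 in all these settings.

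Of 78 ribosomal protein genes 63 were higher in α cells, 0 in β cells and 15 were not called, with a median log2 difference of 0.91. Their summed level was 16394, 14011 and 13637 CPM in α batches 2, 3 and 4 and 5470, 9438 and 8677 CPM in β batches 1, 2 and 3, so β batch 1 was lowest. In 69 of the 78 the α and β batches did not overlap, beside 21.7% of all genes. The count of calls was 22 without β batch 1, 41 without α batch 2, 7 within FACS-sorted batches, 3 within hand-picked batches and 2 in the 6 P9 batches alone, and it reached 76 with equally weighted cells, while the median stayed between 0.67 and 1.68 in these settings. Reads of these genes may be shared with their many processed pseudogenes, so single members are uncertain. Of 88 nuclear oxidative phosphorylation genes 2 were higher in α and 4 in β cells, but 42 and 1 with equally weighted cells, so no direction is given. Cholesterol and fatty acid synthesis had 4 of 23 members higher in β cells and 0 in α cells, among them Scd2, a fatty acid desaturase, at 29.5 ± 8.81 against 129.8 ± 19.4 CPM (adjusted p = 0.00386), a call that ended within FACS-sorted batches. The count was 2 without β batch 2 or α batch 4, 0 within FACS-sorted and 1 within hand-picked batches.

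**Figure D4:**
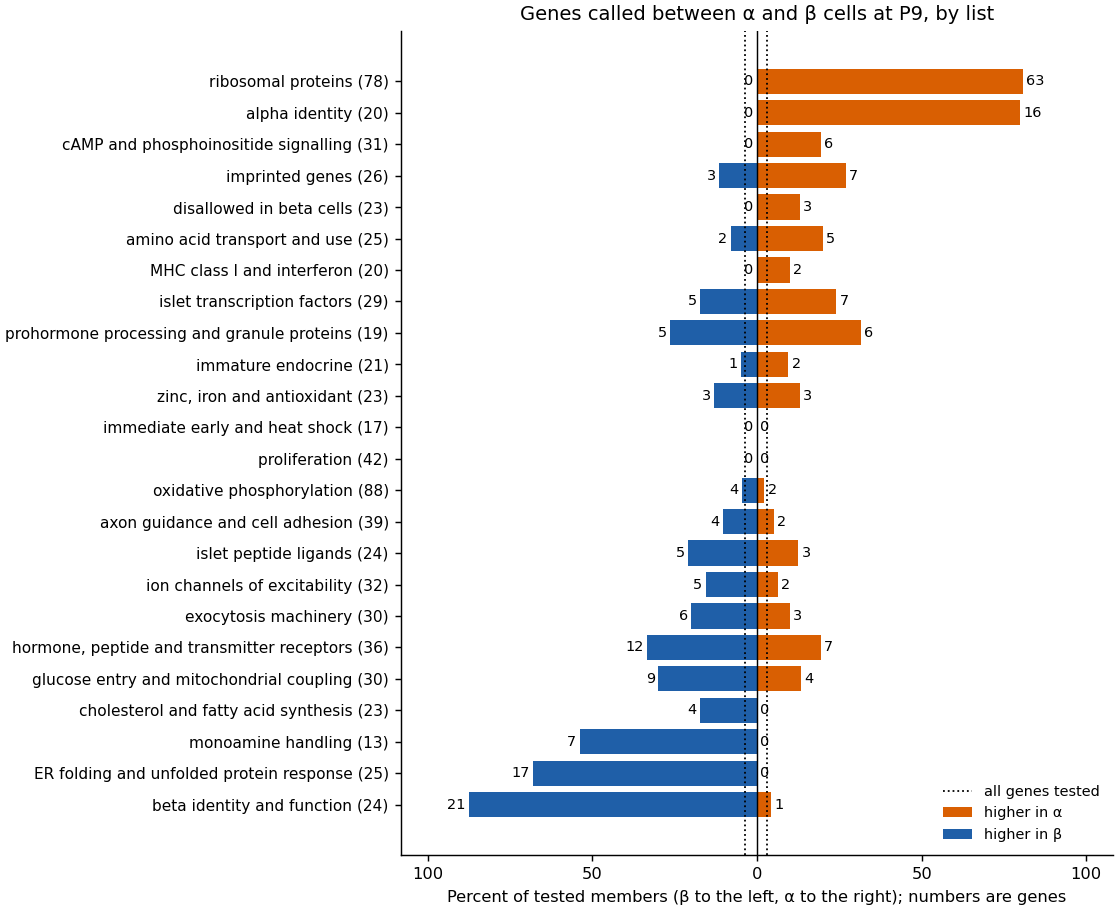
Share of the tested members of each gene list that were called at P9, with genes higher in α cells to the right in orange and genes higher in β cells to the left in blue, in percent, and counts printed at the bars. Numbers of members tested are in parentheses and dotted lines mark the shares of all genes, 2.90% and 3.61%; ribosomal proteins (63 of 78) stand on the α side and ER folding genes (17 of 25) on the β side.

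The difference between the cell types at P9 was then set against other ages of the same study, as a contrast of contrasts in the same fit. Against the mean of E17.5 and P0 it differed for 136 genes (0.734% of those tested), with 64 (0.345%) shifted towards α and 72 (0.388%) towards β cells. The number was 89, 79 and 86 without β batch 1, 2 and 3. Cryba2, a crystallin gene of endocrine cells, changed its order between the cell types: 239 and 133 CPM in β cells before P9 and 53.2 at P9, against 56.9, 74.9 and 259.6 CPM in α cells (shift 3.61, SE 0.47, adjusted p = 3.96e-05). Its P9 call on its own ended within hand-picked batches. Pappa2, a protease that frees insulin-like growth factors, was at 18.5, 60.0 and 495 CPM in α cells at E17.5, P0 and P9, and at 30.1, 18.4 and 7.74 CPM in β cells (shift 5.82, adjusted p = 0.000397). Higd1a, a mitochondrial protein of the hypoxia response, was at 45.9, 69.6 and 179.9 CPM in α and 28.0, 14.6 and 1.02 CPM in β cells (shift 6.08, adjusted p = 1.61e-05). This shift was 5.46 without β batch 2 and 6.94 without β batch 3. Ttr went from 8912 and 8690 to 30328 CPM in α cells and from 607 and 503 to 455 CPM in β cells (shift 2.03, adjusted p = 0.00973), a call that ended without β batch 3 (1.76, adjusted p = 0.0604).

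Shifts towards β cells included Ins1, at 63135, 117561 and 194656 CPM in β cells and 189, 102 and 18.7 CPM in α cells at E17.5, P0 and P9 (shift -4.07, SE 0.75, adjusted p = 0.00254). DESeq2 did not call it (adjusted p = 0.0967). For Gcg (shift 4.65, adjusted p = 0.354) and Ins2 (shift -3.15, adjusted p = 0.178) the shift did not pass. Glp1r went from 71.8 and 63.3 to 277 CPM in β cells and from 1.39 and 0.187 CPM to no read in α cells. Muc4 stayed high in β cells (167, 118 and 134 CPM) and went from 12.3 and 10.5 CPM to no read in α cells. Trpm5 went from 48.6 and 66.3 to 133 CPM in β cells and from 5.42 and 0.615 CPM to no read in α cells. With α cells at 0 reads at P9 the fitted shifts of these 3 genes are no bounds. The call of Glp1r ended without any of the 6 P9 batches (adjusted p 0.0602 to 0.124), and that of Trpm5 without α batch 2, 3 or 4 or β batch 1 (adjusted p 0.0559 to 0.0940). With equally weighted cells at pseudocounts of 1 and 0.1 the shift of Trpm5 was -1.13 and -1.87 and was not called (adjusted p = 0.145 and 0.119, limma), and that of Muc4 was 0.17 and -0.35 (adjusted p = 0.901 and 0.874).

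Against the mean of P15, P18 and P60 the P9 difference had changed for only 3 genes by edgeR (0.0162% of those tested), with 1196 at an unadjusted p under 0.05 and 207 by DESeq2. The shift was towards α cells for 1 (0.00539%) and towards β cells for 2 (0.0108%). The former was Iqcg, chosen after its values were seen, at 1.48 CPM in α and 0 CPM in β cells at P9. The others, Rbp4 and Higd1a, passed 50 CPM in α cells. Rbp4, the retinol carrier, was at 90.4 CPM in β cells at P9 and at 4.55, 13.7 and 9.32 CPM at P15, P18 and P60, while α cells held 351 CPM at P9 and 952, 858 and 522 CPM later (shift -4.50, adjusted p = 0.0197). The Rbp4 batches of β cells at P9 were 57.3, 23.0 and 191 CPM. Its call ended without any α batch (adjusted p 0.0556 to 0.0911) or without β batch 3 (-3.35, adjusted p = 0.359). Higd1a was at 1.07, 0 and 1.99 CPM in the β batches at P9 and at 0, 0 and 0.0117 CPM at the later stages (shift -6.46, no bound, adjusted p = 0.0147). This call ended without β batch 3 (adjusted p = 0.288), and the shift was -7.09 without β batch 2.

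**Figure D5:**
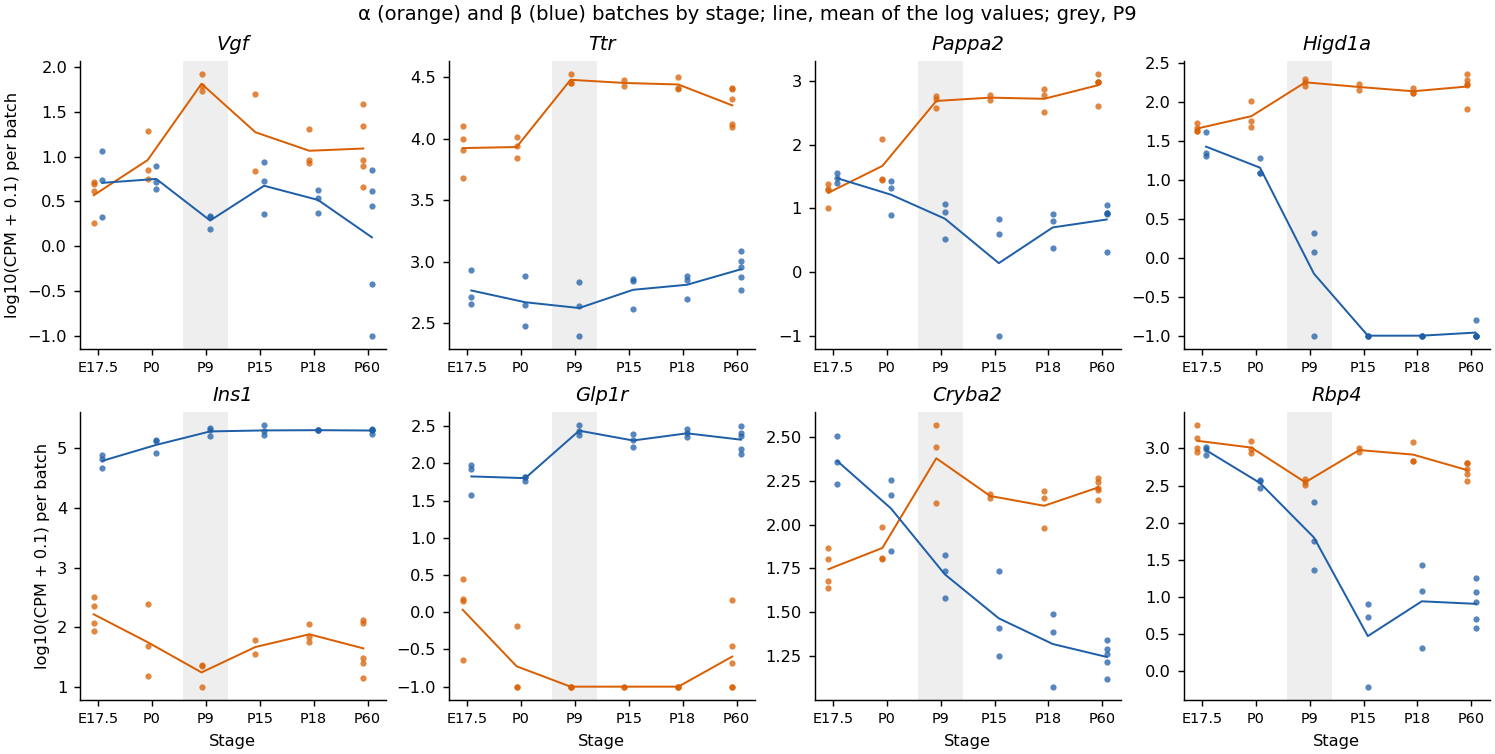
Levels of 8 genes in α (orange) and β (blue) batches at 6 stages, as log10(CPM + 0.1) on the vertical axis, with each batch as a point, a line through the means of the log values and P9 shaded grey. Cryba2 changes order between P0 and P9, and Pappa2, Ttr and Vgf go up in α cells from P0 to P9. Vgf in α cells lies at 53.6 to 83.0 CPM at P9 and at 4.52 to 50.0 CPM in the later batches. Rbp4 and Higd1a in β cells lie between their early and late levels at P9.

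The RNA content of the cells was compared through the spike-ins. Gene reads per spike-in read, as batch medians over cells, were 25.8 ± 11.9 in α and 36.0 ± 7.57 in β batches (SD, n = 3; difference -10.2, two-sided exact permutation p = 0.300). The difference was -24.9 among FACS-sorted and 6.57 among hand-picked batches, but each of these sets held 1 batch of a cell type, so they have no test and a turn with the method cannot be told apart from the spread of single batches. Genes detected per cell were 7106 ± 201 and 7518 ± 133 (difference -412, two-sided exact permutation p = 0.10, the smallest that 3 against 3 batches can give).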

How the data were processed

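Single islet cells were profiled by Smart-seq2, and the authors deposited raw read counts per gene and cell. The submitters' processing notes name TopHat2 2.1.0, HTSeq 0.6.0, DESeq 1.20.0 and the build GRCm38 (mm10). Their order, and whether counting used strand, are not given in the sources used here, so overlapping and antisense genes cannot be told apart. The gene lengths used for TPM were deposited beside the counts as another column.

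Cells were mapped through their labels, and 51 selected or several-hormone cells were not used. The members and lists were chosen with earlier results of these data known. The 92 spike-in rows stayed out of library sizes. Counts were summed per labelled batch and tested in edgeR 4.0.16 (R 4.3.3; TMM, filterByExpr, quasi-likelihood F test) over 45 batches (20 α, 25 β), with a group for each cell type and stage and the collection method as covariate. The common dispersion was 0.648, with 31 residual degrees of freedom. Adjusted p-values are Benjamini-Hochberg values over 18537 genes. Alternatives used DESeq2 1.42.0, limma 3.58.1 on equally weighted cells (log2 TPM without TMM scaling), other scaling, filters and batches. The fit was tested on simulated data. For the at-least fold bounds alone, a gene at 0 reads in a cell type was set to a floor of 3 reads over the group. The fits and the CPM levels kept the 0 reads.

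Named genes were the 12 with the largest difference per direction (at least 50 CPM in the higher cell type, batches not overlapping), up to 3 called members per list and direction (at least 5 CPM), the uncalled member with the highest mean, the 5 largest shifts per direction against other stages, and a fixed set of hormone and identity genes. They were taken from this rule, and not each is described; some items are not reported here. Other genes are marked where they appear. Promoters came from RefSeq (GRCm38.p6), which held 97 of the 124 genes named by the rule, and gene positions from GENCODE vM21.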

Additional observations from a re-analysis of the deposited data

Results flagged for a closer look

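The difference between α and β cells at P9 itself differed from that at other stages for these genes, by the edgeR test of the difference. Against the mean of E17.5 and P0, the shift on the log2 scale was towards β cells for Muc4 (-10.89), Trpm5 (-9.71), Glp1r (-8.46), Th (-5.58) and Ins1 (-4.07). It was towards α cells for Higd1a (6.08), Akr1c14 (5.86), Pappa2 (5.82), Vgf (5.09), Cryba2 (3.61) and Ttr (2.03). Muc4, Trpm5 and Glp1r had no read in α cells at P9, and Akr1c14, a hydroxysteroid dehydrogenase, had none in α cells at E17.5 and P0, so these 4 values are no bounds. At P9 itself Akr1c14 was higher in β cells (log2 difference -2.52), and its shift reversed with equally weighted cells (-1.93 and -3.29 at pseudocounts of 1 and 0.1).

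Th had 9.78, 7.21 and 0.515 CPM in α cells and 47.5, 35.0 and 77.2 CPM in β cells at E17.5, P0 and P9. Its call ended without α batch 2 (-4.72, adjusted p = 0.0919) or 4 (-4.91, adjusted p = 0.105) and without β batch 1 or 2, and the shift was -11.46 without α batch 3. With equally weighted cells it was -1.03 and -1.65 and not called (limma adjusted p = 0.534 and 0.507). Vgf had 3.89, 10.5 and 65.9 CPM in α cells and 6.21, 5.71 and 1.85 CPM in β cells, and its call ended without α batch 3 or any β batch (adjusted p 0.0706 to 0.128). Against the mean of P15, P18 and P60 the shift was -6.46 for Higd1a and -4.50 for Rbp4.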

How the results depend on the processing

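Of 110 genes picked for description and tested at P9, 86 were called, and 36 of these kept call and direction under every alternative. Genes higher in α cells (538) numbered 950 with DESeq2, 1437 and 1207 with equally weighted cells at pseudocounts 1 and 0.1, 194 in the 6 P9 batches alone, 149 within FACS-sorted and 116 within hand-picked batches, and 305 to 430 without any 1 batch. Genes higher in β cells (669) numbered 239, 276 and 244 in the 6 P9 batches, FACS-sorted and hand-picked batches. The replicate block, by batch number in the 6 P9 batches, gave 96 and 106. Only numbers 2 and 3 are shared, and their deviations did not go together (correlations 0.014 and -0.011), so the numbers were not taken as pairing. The 136 shifts against E17.5 and P0 numbered 563 with DESeq2, 668 and 614 with equal weights, and 79 to 120 without any 1 batch. The 3 shifts against later stages numbered 207, 40 and 39 in these settings, and 0 to 12 without any 1 batch. With equal weights the shift of Muc4 became 0.17 and -0.35, those of Th and Trpm5 -1.03 and -1.13 at pseudocount 1, that of Akr1c14 -1.93 and -3.29, and that of Higd1a against later stages 0.10. Gene reads per spike-in read differed by -24.9 within FACS-sorted and 6.57 within hand-picked batches, and genes detected by -604 within hand-picked batches. The causes were not tested. Depth limits genes at a few reads per batch, and 3 batches per cell type limit the rest.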
